A study of Mus musculus with 16 samples.

Results

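Stage dependence of the Dicer knockout effect in the embryonic mouse adrenal gland was measured gene by gene as the knockout effect at embryonic day E16.5 minus the knockout effect at E15.5, called the interaction below. The knockout effect at a stage is the mean log2 signal of the knockout (KO) arrays minus that of the controls, so a difference of 1 is a 2-fold difference. A gene was represented by the probe set (the group of short probes that measures a transcript) with the highest mean over the 16 arrays. Of 18193 genes with such a probe set, 13642 were bright enough to be tested and 4551 were not.

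Whole adrenals of C57BL/6 embryos were profiled in 4 groups of 4 arrays: control E15.5, KO E15.5, control E16.5 and KO E16.5. KO embryos carried Sf1-Cre and 2 floxed Dicer alleles (Sf1-Cre/Dicer lox/lox), whereas controls were littermates without Cre that the labels call WT, and the labels do not say which Dicer alleles each control carried. Each array held glands of a genotype pooled within a litter, with 4 litters per stage. The spread between arrays therefore includes the spread between litters, and no embryo is represented singly. The labels do not say which KO and control arrays share a litter, so the fit does not pair them.

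Dicer cuts microRNA precursors into mature microRNAs, which lower the level and translation of messenger RNAs that pair with their seed. Sf1, encoded by Nr5a1, drives development of the steroid-producing cortex, so that Cre from its promoter acts in cortical cells, while macrophages, chromaffin cells, Schwann cells and vessels of the gland do not use it and keep Dicer. Around these stages the fetal cortex makes corticosteroids from cholesterol under the control of corticotropin, and macrophages take up dying cells in many fetal organs. In a whole gland, fewer cells of a type and less RNA per cell cannot be told apart.

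Correlations between arrays of a group were 0.975 to 0.996, and mean signals were 6.35 to 6.37 in KO arrays and 6.31 to 6.32 in controls. Control E16.5 replicate 2 stood apart, with a 3′ minus 5′ signal of 3.15 on the log2 scale against 0.19 to 1.62 in the other 15 arrays. Values without it are given beside the results it moved most. The steroidogenic enzyme gene Cyp11b1, a marker of the adrenal cortex, was bright on all 16 arrays (11.86 to 13.97). In the dimmest 8994 probe sets the median interaction was -0.02.

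Dicer1 itself differed between genotypes by nearly the same amount at both stages. At E15.5 its log2 signal was 8.50, 8.63, 8.64 and 8.58 in the controls and 8.24, 8.36, 8.0 and 8.34 in the KO. On the next day it was 8.45, 8.83, 8.60 and 8.59 in the controls and 8.42, 8.30, 8.22 and 8.09 in the KO. All KO arrays lay below all controls of their stage, by a narrow margin at E16.5. The KO effect was -0.35 (adjusted p = 0.0638) and then -0.36 (adjusted p = 0.0414), and the interaction was -0.01 with a 95% interval of -0.33 to 0.31, whose sign turned when some single arrays were left out (-0.08 to 0.06). The sources used here do not say whether the probe set lies in the deleted part of the gene. Nr5a1, whose promoter drives Cre, had an interaction of -0.38 (standard error, SE, 0.46) and did not pass between genotypes at either stage. The Nr5a1 interaction ran from -0.65 to -0.06 as single arrays were left out.

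No gene passed the test of the interaction. After adjustment over all 13642 genes the share passing at an adjusted p under 0.05 was 0%, and every adjusted p rounded to 1.00 (limma). With arrays weighted by their quality 6 genes passed, Cyp2f2 and Msr1 among them. In that fit control E16.5 replicate 3 had a weight of 10.37, against 0.64, 0.19 and 0.49 in replicates 1, 2 and 4. As controls at E16.5, the 6 calls thus rest largely on that array. Without weights there were 258 genes at an unadjusted p under 0.05 (1.89%), of which 175 had a positive interaction (1.28%) and 83 a negative one (0.608%). The share of 1.89% lies below the 5% set by the threshold. The median 95% interval of a gene, which is not adjusted, reached 0.42 to either side of its value. Passing after adjustment took far more than that, since Rgs1 at 1.10, Lgals3 at 1.14 and Cyp2f2 at -1.63 did not pass. The lack of passing genes therefore does not show that stage differences above 0.42 were absent.

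Effects at both stages were alike in direction. Genes passing between genotypes numbered 800 at E15.5 (5.86%) and 1439 at E16.5 (10.5%), and 644 of them passed at both stages, 0 in opposite directions. Of the 644, the KO effect was larger at E16.5 in 388 and smaller in 256. Of the genes passing at E15.5, 48.5% had a larger effect at E16.5, and of those passing at E16.5, 80.0% did. Choosing genes by the stage at which they pass raises the effect at that stage, so neither share measures growth by itself. Over all genes tested the effect was larger at E16.5 in 6185 (45.3%), smaller in 4592 (33.7%) and of opposite sign in 2865 (21.0%). Across genes, which are not independent, effects at the 2 stages correlated with r = 0.79, and they share no array.

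**Figure D1:**
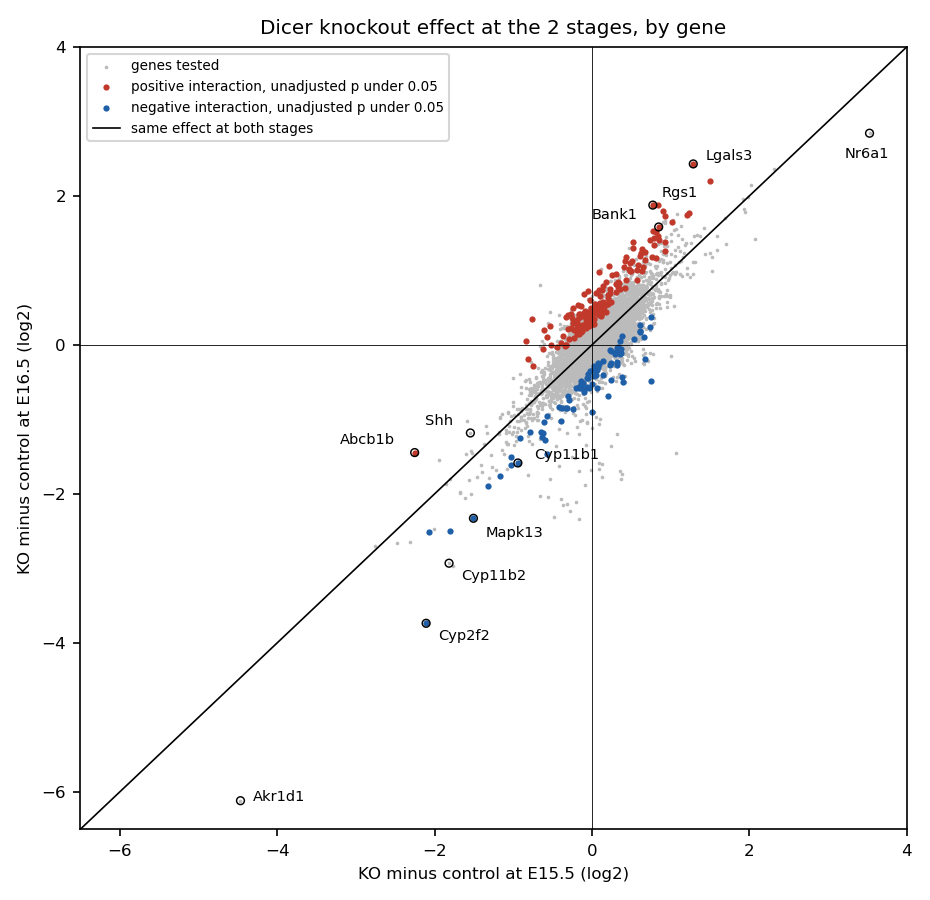
Each point is a gene, with KO minus control at E15.5 on the horizontal axis and at E16.5 on the vertical axis (log2). Red points are the 175 genes with a positive interaction and blue points the 83 with a negative interaction at an unadjusted p under 0.05; the line marks equal effects, and Lgals3 and Rgs1 lie above it while Cyp2f2, Mapk13 and Akr1d1 lie below.

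The 2 directions came from different day changes. The 175 genes with a positive interaction had a median change from E15.5 to E16.5 of -0.04 in controls and 0.43 in KO glands, and 64 of them passed for the day change in the KO against 2 in controls. The 83 with a negative interaction had a median day change of 0.33 in controls and -0.20 in the KO, and the controls had the higher mean at E16.5 in 77 of the 83. Over all genes, 13 passed for the day change in controls (0.0953%) and 123 in the KO (0.902%, 119 of them higher at E16.5). Since the interaction is built from these day changes, the medians describe it and do not test it.

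Of the 10 genes with the smallest p among positive interactions, 4 belong to the immune lists (Rgs1, Msr1, Lgals3 and Laptm5) and the other 6 to none of the lists. The 10 were Rgs1, Msr1, Bank1, Marchf1, Vcam1, Slc15a3, Mettl7a1, Lgals3, Laptm5 and Arhgap25. Each was higher in the KO at E16.5 and rose from E15.5 to E16.5 within the KO, in both cases at an adjusted p under 0.05 (6.99% and 0.872% of all genes in that direction). None of the 10 passed for the day change in controls. The KO effect at E16.5 and both day changes are parts of the interaction by which the genes were chosen, so these counts describe the choice and do not test it. In all 16 fits that left out an array, each kept its sign and an unadjusted p under 0.05, which their choice by small p favours. The choice itself was less stable: without control E16.5 replicate 2, 5 of the 10 were still among the 10 positive genes with the smallest p.

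Rgs1 encodes a regulator that shuts off signalling from chemokine receptors in leukocytes. Its log2 signal at E15.5 was 4.33, 4.17, 4.26 and 4.45 in controls and 4.91, 5.08, 4.77 and 5.56 in the KO. At E16.5 the values were 4.39, 4.31, 4.50 and 4.05 in controls and 5.97, 6.14, 6.53 and 6.12 in the KO. Controls stayed in a single range over the day, and the 4 KO E16.5 arrays lay above all other arrays. Signals as dim as those of the controls are compressed by the array summary. Their lack of change over the day and the KO effects therefore hold only on that scale. The KO effect was 0.77 and then 1.88, an interaction of 1.10 (SE 0.23, 95% interval 0.62 to 1.58, unadjusted p = 0.000169).

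Lgals3 encodes galectin-3, a lectin abundant in activated macrophages. At E15.5 its log2 signal was 6.58, 6.80, 7.0 and 6.89 in controls and 7.72, 8.24, 7.72 and 8.74 in the KO. At E16.5 it was 7.92, 7.13, 7.63 and 7.19 in controls and 9.65, 9.88, 10.02 and 10.04 in the KO. Here the controls were also higher at E16.5, without overlap between days, but by 0.65 (adjusted p = 0.333) against 1.79 in the KO. The interaction was 1.14 (SE 0.30, unadjusted p = 0.00173) and 1.03 without control E16.5 replicate 2.

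Msr1, a scavenger receptor of macrophages, had a small KO effect at E15.5 that did not pass (0.31, adjusted p = 0.0792). Its values were 6.81, 6.76, 6.80 and 6.80 in controls and 7.14, 7.05, 6.91 and 7.30 in the KO at E15.5. They were 7.01, 7.25, 6.96 and 7.0 in controls and 8.12, 7.98, 7.89 and 8.04 in the KO at E16.5. The KO E16.5 arrays stood clear of the other 12, with a KO effect of 0.95 and an interaction of 0.65 (SE 0.14, unadjusted p = 0.000257). The other 3 Msr1 probe sets, which were dimmer, gave 0.30, 0.04 and 0.35, and the mean of all its probe sets gave 0.33.

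Bank1, an adaptor of B-cell receptor signalling, was 4.80 to 5.14 in the 8 controls of both days, 5.44 to 5.95 in the KO at E15.5 and 6.39 to 6.73 in the KO at E16.5. Its interaction was 0.73 (SE 0.17), and the 3 ranges did not overlap. Vcam1, an adhesion molecule of vessels and of some resident macrophages, had an interaction of 0.86, with KO values of 8.99 to 9.32 and then 9.91 to 10.30. Slc15a3, a lysosomal peptide transporter of myeloid cells, had 0.80, Marchf1, a ubiquitin ligase that acts on major histocompatibility complex (MHC) class II molecules, 0.66, and Arhgap25 0.66. Mettl7a1, a methyltransferase-like protein of lipid droplets, had the smallest of the 10 at 0.47. Dimmer probe sets gave 0.92 and 0.33 for Vcam1, -0.02 and 0.38 for Marchf1, 0.13 for Arhgap25, and 0.11 and 0.28 for Mettl7a1. Marchf1 controls were dim with the probe set used, at 3.90 to 4.52. Controls of Bank1 and of Slc15a3 (4.70 to 5.48) were also dim. As with Rgs1, the KO effects and interactions of these genes hold only on the compressed scale of the array.

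Laptm5, a lysosomal membrane protein of blood cells, was 7.83 to 8.13 in controls and 8.32 to 8.73 in the KO at E15.5, and 8.22 to 8.48 in controls and 9.38 to 9.70 in the KO at E16.5. Its KO effect was 0.61 and then 1.20, an interaction of 0.59 (SE 0.16, unadjusted p = 0.00189). Its 4 dimmer probe sets gave 0.37, 0.36, 0.08 and 0.14, and the mean of all its probe sets gave 0.31. The 250 bases upstream of its start are shown because they hold the core that PU.1, the myeloid factor encoded by Spi1, is known to bind. The window is chr4:130913066-130913315 on the plus strand (RefSeq, GRCm38.p6), and capitals mark the core, which begins 39 bases before the start.

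Laptm5: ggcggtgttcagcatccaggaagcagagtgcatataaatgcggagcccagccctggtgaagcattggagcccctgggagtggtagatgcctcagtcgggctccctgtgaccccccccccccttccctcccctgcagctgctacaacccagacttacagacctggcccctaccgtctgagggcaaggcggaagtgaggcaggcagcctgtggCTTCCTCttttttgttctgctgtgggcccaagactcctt

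The core was searched as GAGGAAG or CTTCCTC on the plus strand, which covers both strands, and was found in 10.6% of 32851 upstream windows of the same length. Of the 10 named genes with a positive interaction, 6 had a window and 4 of these held the core: Marchf1, Mettl7a1, Laptm5 and Arhgap25. A gene counted when any of its windows held the core, whereas the 10.6% is a share of single windows, so these are unlike measures. A match of letters is not a binding site, and the motif was chosen with the expression results known.

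Across the gene lists, macrophage identity had the highest median interaction. Of 17 tested macrophage identity genes, all 17 had a positive interaction, against 52.2% of all genes. Their median was 0.41 against 0.01 over all genes. A positive interaction at an unadjusted p under 0.05 was found in 3 (1.28% of all genes): Laptm5, C1qb and Mrc1. Of the same 17, 10 were higher in the KO at an adjusted p under 0.05 at E15.5 and 16 at E16.5 (3.69% and 6.99% of all genes). The median KO effect was 0.81 and then 1.20. Members of a list are measured in the same cells and arrays, so these counts are not independent of each other.

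The mean log2 signal of the macrophage list shows where the interaction arose. It was 7.32 to 7.53 in controls at E15.5, 7.85 to 8.35 in the KO at E15.5, 7.59 to 8.05 in controls at E16.5 and 8.70 to 8.99 in the KO at E16.5. The highest control E16.5 array overlapped the KO E15.5 range, whereas KO arrays lay above the controls at each stage. Without control E16.5 replicate 2 the median interaction was 0.33, with 16 of 17 positive, and over all single arrays left out it ranged from 0.25 to 0.56. Among the defining genes, C1qb, a chain of complement C1q made by tissue macrophages, had an interaction of 0.67 (KO effect 0.74, then 1.41), C1qa 0.74, Cd68 0.65 and the mannose receptor gene Mrc1 0.46. None of these differences in effect passed after adjustment.

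Phagocytic receptors and lysosomal genes had a median interaction of 0.27 over 15 genes, 14 of them positive, against 52.2% of all genes. A positive interaction at an unadjusted p under 0.05 was found in 4 (1.28% of all genes): Msr1, Lgals3, Mertk and Grn. Without control E16.5 replicate 2 the median was 0.23 with 11 of 15 positive, and with arrays weighted by their quality 0.15. Mertk, a receptor for dying cells, differed by 0.02 at E15.5 and was higher by 0.46 at E16.5. Cathepsins, the lysosomal proteases, had a median of 0.21 over 13 genes, but 0.04 without control E16.5 replicate 2. In that list Ctss was 0.49 and Ctsc 0.55.

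Chemokines and their receptors had a median interaction of 0.20 over 15 genes. With single arrays left out it ran from 0.12 (without KO E16.5 replicate 2) to 0.29, and it was 0.37 with a stricter filter. In that list Ccl6 was at 1.05 (unadjusted p = 0.00354) and Ccl9 at 0.64. Both passed at both stages, with KO effects of 0.84 and 1.89 for Ccl6 and of 0.79 and 1.43 for Ccl9. Interferon-stimulated genes had a median of 0.08, which ran from 0.0027 to 0.23 as single arrays were left out. MHC class II genes had a median of 0.17 over 5 genes, with 0 at an unadjusted p under 0.05, and it ran from -0.02 (without KO E16.5 replicate 2) to 0.33. Over all 80 immune genes tested, 72 had a positive interaction, against 52.2% of all genes, and 14 an unadjusted p under 0.05, all 14 positive (1.28% of all genes). Without control E16.5 replicate 2, 63 were positive and 13 had an unadjusted p under 0.05, all 13 positive. In that fit 6942 of all 13642 genes were positive. Those positive at an unadjusted p under 0.05 numbered 361, against 175 with all arrays.

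**Figure D2:**
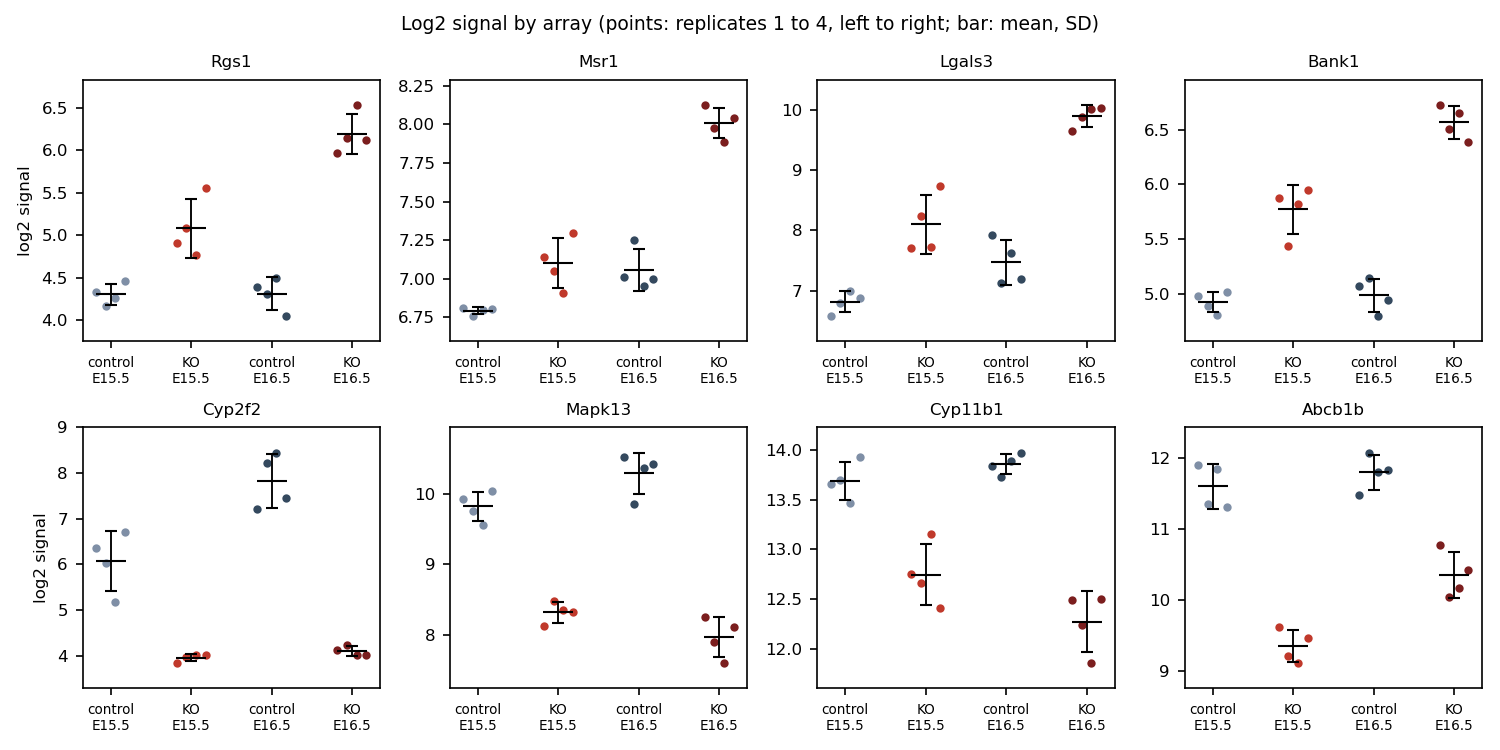
Log2 signal of 8 genes in each array, with replicates 1 to 4 from left to right within a group and a bar for the group mean with its SD; vertical axes differ between panels and do not start at 0. The immune genes of the upper row are highest in the 4 KO E16.5 arrays, Cyp2f2 is near 4 in all KO arrays, and Abcb1b is lowest in the KO at E15.5.

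The negative interactions with the smallest p were mostly of genes whose controls had higher means at E16.5. The 10 named were D630024D03Rik, Cyp2f2, Pcp4l1, Mapk13, Ankrd63, Ppm1k, Man1a, Cd1d1, Sohlh2 and Atp1a4. All 10 were lower in the KO at E16.5 at an adjusted p under 0.05 (3.56% of all genes), and 4 of them already at E15.5 (2.18%). All 10 had a higher control mean at E16.5 than at E15.5, and 3 of them passed for that change (0.044% of all genes): D630024D03Rik, Cyp2f2 and Man1a. Here too these differences are parts of the interaction used for the choice, so the counts do not test it. Each of the 10 kept its sign and an unadjusted p under 0.05 with any array left out, which the choice by small p again favours. Without control E16.5 replicate 2, 5 of the 10 were still among the 10 negative genes with the smallest p.

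Cyp2f2 encodes a cytochrome P450 best known for oxidising foreign aromatic compounds in lung. Its log2 signal at E15.5 was 6.36, 6.03, 5.17 and 6.70 in controls and 3.84, 3.96, 4.01 and 4.02 in the KO. A day later it was 7.21, 8.21, 8.45 and 7.46 in controls and 4.12, 4.24, 4.01 and 4.01 in the KO. All 8 KO arrays stayed within 3.84 to 4.24 while the controls rose by 1.77 over the day (adjusted p = 0.0254). The KO effect was -2.11 and then -3.74, an interaction of -1.63 (SE 0.40, 95% interval -2.48 to -0.78, unadjusted p = 0.000861). The KO signal changed by 0.14 over the day, so the interaction largely restates the day change of the controls. Signals as dim as those of the KO are compressed by the array summary, and the KO effects and the interaction are exact differences only on that scale.

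The window upstream of Cyp2f2 is shown because it holds the half-site that Sf1 is known to bind. It is chr7:27119705-27119954 on the plus strand (RefSeq, GRCm38.p6), and capitals mark the half-site, which begins 222 bases before the start.

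Cyp2f2: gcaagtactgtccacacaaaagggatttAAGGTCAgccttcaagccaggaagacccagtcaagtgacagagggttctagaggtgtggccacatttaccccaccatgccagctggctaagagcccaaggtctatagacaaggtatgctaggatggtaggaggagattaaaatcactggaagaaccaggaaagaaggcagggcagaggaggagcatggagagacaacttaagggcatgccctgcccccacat

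The half-site was searched as AAGGTCA or TGACCTT, and 4.08% of the 32851 windows held it. Neither this motif nor the PU.1 core contains the other. Of the 10 named genes with a negative interaction, 9 had a window, and Cyp2f2 was the 1 among them with the half-site. Here too a gene counted when any of its windows held the motif, whereas the 4.08% is a share of single windows. As above, this describes letters and no binding.

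Mapk13, the p38 delta kinase, was 9.93, 9.76, 9.56 and 10.04 in controls and 8.12, 8.48, 8.35 and 8.31 in the KO at E15.5. By E16.5 it was 10.52, 9.86, 10.36 and 10.42 in controls and 8.25, 7.89, 7.60 and 8.11 in the KO. The groups were far apart on both days. The KO effect was -1.51 and then -2.33, an interaction of -0.82 (SE 0.23), and -0.97 without control E16.5 replicate 2.

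Cd1d1, which presents lipid antigens, had control values of 9.86 to 10.26 and then 10.39 to 10.84, against 9.27 to 9.58 and 9.48 to 9.58 in the KO, an interaction of -0.55. Man1a, a mannosidase that trims N-glycans, rose in controls, from a range of 8.37 to 8.93 at E15.5 to a range of 9.24 to 9.61 at E16.5, with an interaction of -0.63. Ppm1k, a mitochondrial phosphatase that acts on branched-chain amino acid breakdown, was 9.25 to 9.53 in all groups but control E16.5, where it was 9.55 to 9.85, and its interaction was -0.44. D630024D03Rik, Pcp4l1, Ankrd63, Atp1a4 (a sodium pump subunit of sperm) and Sohlh2 (a germ cell transcription factor) had interactions of -0.89, -0.90, -0.68, -0.62 and -0.50. Dimmer probe sets gave -0.75 for Cd1d1, -0.47 for Man1a and -0.08 for Ppm1k. Ankrd63 was dim in the KO, at 4.12 to 4.81, so its differences hold only on the compressed scale.

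**Figure D3:**
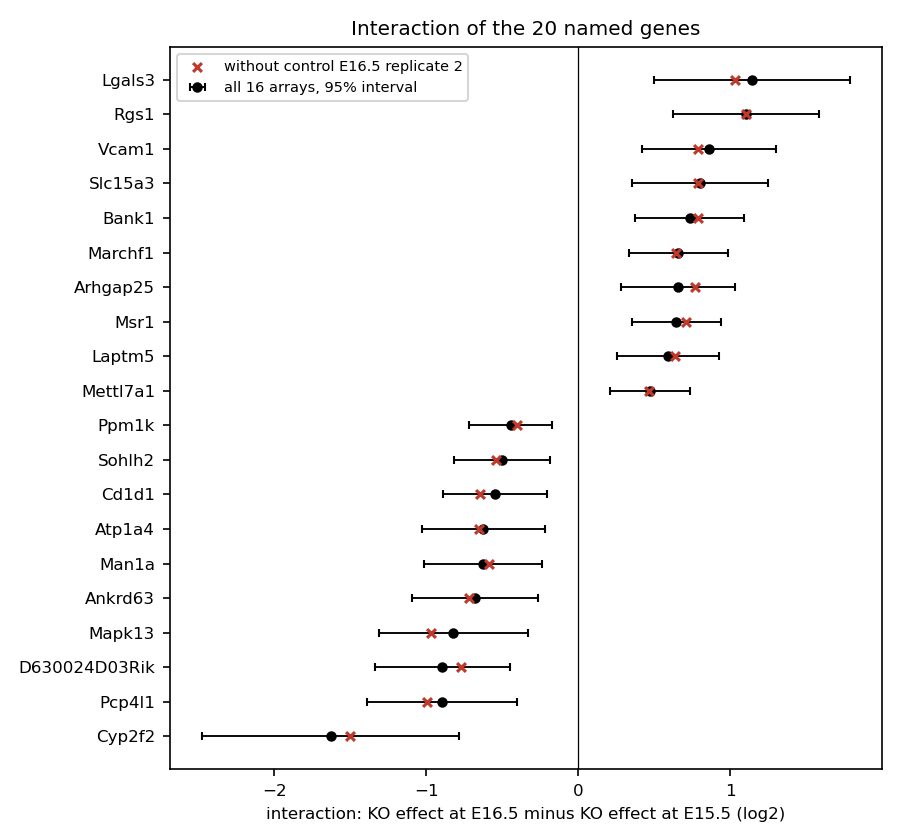
Interaction (KO effect at E16.5 minus KO effect at E15.5, log2) of the 20 named genes, with 95% intervals from all 16 arrays as black points and bars and the value without control E16.5 replicate 2 as red crosses. The genes were chosen by small p, the intervals are not adjusted for that choice, and the values run from -1.63 for Cyp2f2, whose KO signals are dim, to 1.14 for Lgals3.

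Genes of the last steps of corticosteroid synthesis all had negative interactions, though not all were lower in the KO. The 6 tested members had a median interaction of -0.18, which ran from -0.35 (without KO E15.5 replicate 4) to -0.08 (without KO E15.5 replicate 3) and was -0.27 without control E16.5 replicate 2. The median KO effect was -0.57 and then -0.75. At E15.5, 3 were lower in the KO at an adjusted p under 0.05 (2.18% of all genes), and at E16.5, 4 were (3.56%): Cyp11b1, Cyp11b2, Cyp21a1 and Hsd3b1. Cyp17a1, which acts toward androgens, and its partner Cyb5a did not pass, with KO effects of 0.83 and then 0.74 and of 0.15 and then 0.10. Cyp11b1, which makes corticosterone, was 13.66, 13.70, 13.46 and 13.92 in controls and 12.76, 12.66, 13.15 and 12.41 in the KO at E15.5. On the next day it was 13.84, 13.73, 13.89 and 13.97 in controls and 12.49, 12.24, 11.86 and 12.50 in the KO. Controls and KO did not overlap on either day, and the KO effect of -0.94 and then -1.58 gave an interaction of -0.64 (95% interval -1.13 to -0.16, unadjusted p = 0.0125).

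Cyp11b2, aldosterone synthase, was more scattered. At E15.5 it was 8.61, 8.97, 7.84 and 9.67 in controls and 6.98, 6.47, 7.68 and 6.69 in the KO. At E16.5 the values were 9.28, 7.92, 9.48 and 9.63 in controls and 5.98, 5.77, 6.12 and 6.71 in the KO. The lowest control at E16.5, at 7.92, is replicate 2. The interaction was -1.11 (95% interval -2.31 to 0.08, unadjusted p = 0.0646), and without that array -1.50 (unadjusted p = 0.00699). The near-identical genes Cyp11b1 and Cyp11b2 may share hybridisation, so their values may not be independent.

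Of 9 tested steroid-reducing and inactivating enzymes, 2 were lower in the KO at an adjusted p under 0.05 at E15.5 (2.18% of all genes) and 3 at E16.5 (3.56%). In the other direction 0 passed at E15.5 (3.69%) and 1 at E16.5 (6.99%). The median KO effect of the enzymes was 0.03 and then 0.08. Their median interaction was 0.04 and their mean -0.21, and the median ran from -0.03, without control E16.5 replicate 2, to 0.11 as single arrays were left out. Akr1d1, a steroid 5-beta-reductase, was 7.17, 8.10, 5.68 and 9.66 in controls at E15.5 and 9.60, 9.06, 8.95 and 10.27 at E16.5. It stayed at 3.01 to 3.49 and then 3.11 to 3.62 in the KO. The KO effect was -4.47 and then -6.12, while the KO signal, too dim for exact differences, changed by 0.16 over the day and the control mean by 1.82 (adjusted p = 0.266). The controls at E15.5 were widely scattered, and the interaction of -1.65 had a 95% interval of -3.32 to 0.01, running from -2.32 to -1.0 as single arrays were left out. Akr1c18, which inactivates progesterone, had -1.21 (KO effect -1.76, then -2.97), whereas Hsd17b7, which also acts in cholesterol synthesis, had 0.70.

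Other cortical functions showed no common direction. Cholesterol supply and side-chain cleavage genes had a median interaction of -0.05 over 10 genes, with Npc2 at 0.35 and Stard4 at 0.36, both cholesterol carriers, and Star, which moves cholesterol into mitochondria, at -0.19. The corticotropin receptor and cAMP list had a median of -0.09 over 16 genes. At an adjusted p under 0.05, 1 was lower in the KO at E15.5 (2.18% of all genes) and 4 at E16.5 (3.56%). In the other direction 0 passed at E15.5 (3.69%) and 1 at E16.5 (6.99%). In that list the phosphodiesterase Pde8b had -0.45, the kinase subunit Prkar2b -0.47 (KO effect -1.53, then -2.0) and the receptor partner Mrap -0.42. Cortex transcription factors had a median of 0.03, which was -0.13 without control E16.5 replicate 2. Nr0b1, a repressor partner of Sf1, had a KO effect of -1.34 and then -1.19, which passed at both stages, and an interaction of 0.15. Over all 72 cortical genes, 38 had a positive interaction, against 52.2% of all genes. At an unadjusted p under 0.05, 5 were positive (1.28% of all genes) and 2 negative (0.608%). Without control E16.5 replicate 2 these counts were 5 and 7. Leaving out that array also raised the counts over all 13642 genes, from 175 and 83 to 361 and 240.

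Cholesterol synthesis genes had a median interaction of 0.24, with 16 of 18 positive, against 52.2% of all genes. Without control E16.5 replicate 2 their median was 0.09 with 13 of 18 positive. The median KO effect was 0.07 and then 0.28, and members of the list had a median day change of -0.59 in controls and -0.39 in the KO. Insig1, which holds back the sterol sensor, had 0.62 and the lanosterol synthase gene Lss 0.49.

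**Figure D4:**
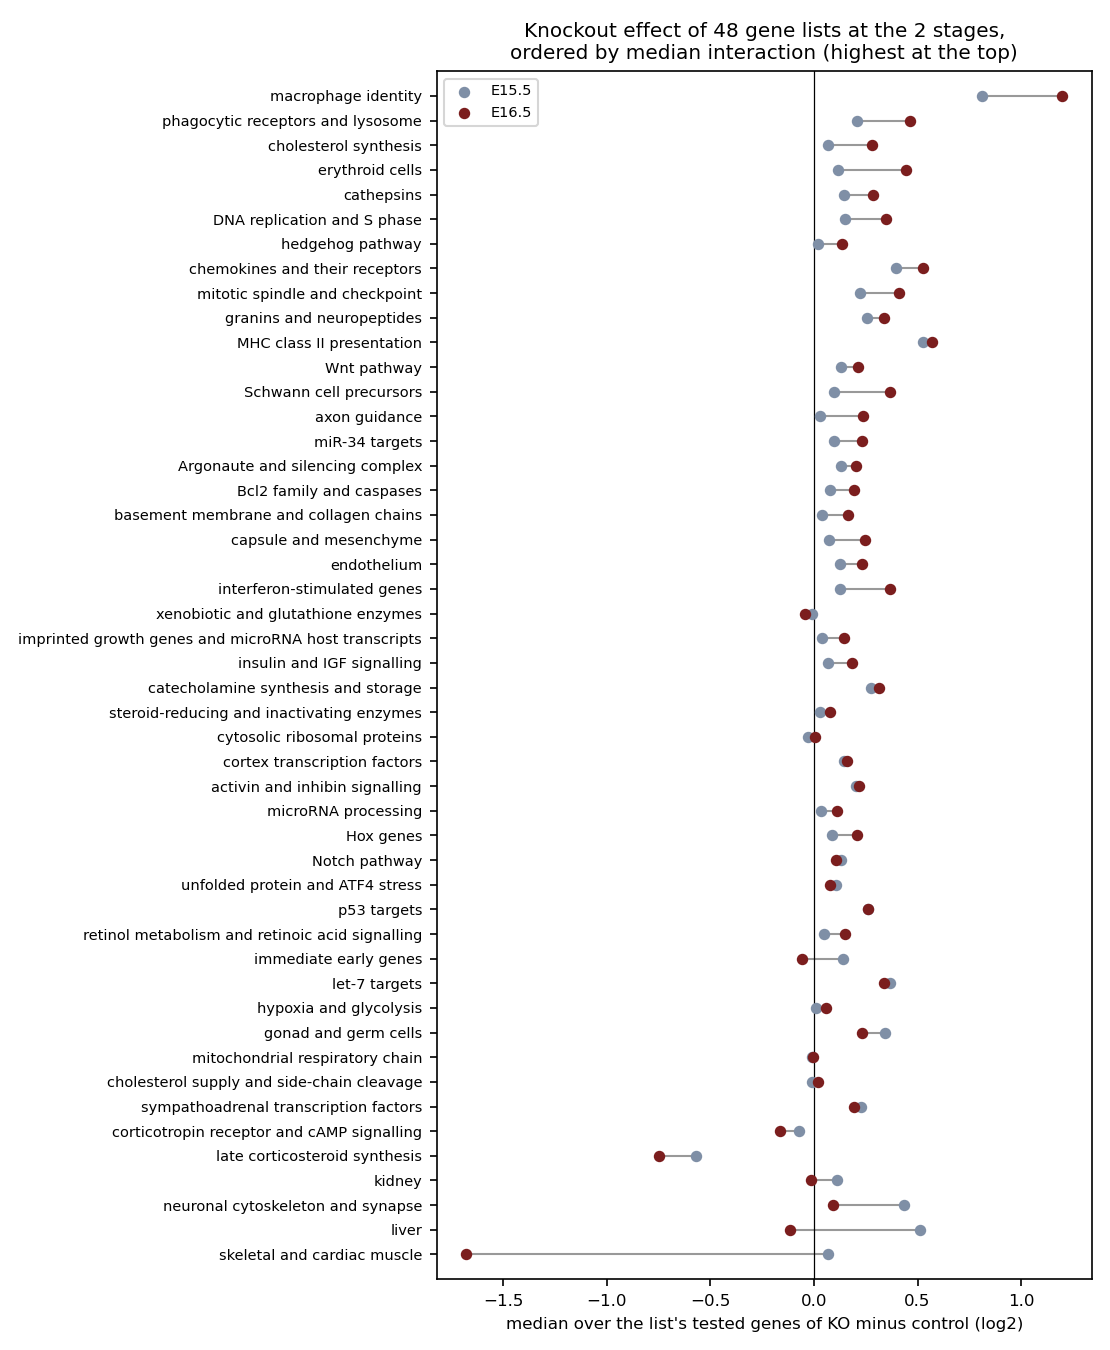
Median KO minus control (log2) over the tested genes of each of 48 lists at E15.5 (grey) and E16.5 (dark red), with lists ordered by their median interaction. Macrophage identity, at 0.81 and 1.20, lies to the right of the other lists, late corticosteroid synthesis lies at -0.57 and -0.75, and the muscle list, which rests on few arrays, moves from 0.07 to -1.68.

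A few losses were smaller at E16.5. Abcb1b, an efflux pump of the plasma membrane, was 11.91, 11.35, 11.85 and 11.31 in controls and 9.62, 9.21, 9.11 and 9.46 in the KO at E15.5. At E16.5 it was 11.48, 12.08, 11.80 and 11.83 in controls and 10.77, 10.04, 10.17 and 10.42 in the KO. KO arrays of the 2 days did not overlap, and the KO rose by 1.00 over the day (adjusted p = 0.0134). The KO effect was -2.25 and then -1.45, an interaction of 0.81 (95% interval 0.25 to 1.36, unadjusted p = 0.00701).

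Shh, the hedgehog ligand of cells under the capsule, was 10.78, 10.65, 10.07 and 10.84 in controls and 8.92, 8.88, 9.26 and 9.11 in the KO at E15.5. A day later it was 10.37, 10.43, 10.89 and 10.48 in controls and 9.30, 9.26, 9.51 and 9.38 in the KO. The KO effect passed at both stages, at -1.54 and -1.18, and the interaction of 0.36 had a 95% interval of -0.12 to 0.84. Of 12 hedgehog pathway genes, 11 had a positive interaction, against 52.2% of all genes, and 0 an unadjusted p under 0.05. Their median was 0.21, and 0.12 without control E15.5 replicate 4. Most of these were not shrinking losses: the median KO effect was 0.02 and then 0.14. The effect was larger at E16.5 in 5 genes, smaller in 4 and of opposite sign in 3. The hedgehog-binding protein gene Hhip was at -0.85 and then -0.48, and the target Gli1 at -0.14 and then 0.24. Wnt pathway genes had a median of 0.16 over 21 genes. With single arrays left out it ran from 0.07 (without KO E16.5 replicate 3) to 0.20. In that list Rspo3, a Wnt enhancer of the capsule, had 0.56 (unadjusted p = 0.0158). It was higher in the KO by 0.66 at E16.5 at an adjusted p under 0.05.

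Targets of the let-7 microRNAs had nearly the same median KO effect on both days. The let-7 and miR-34 families are shown because their published targets made up 2 of the lists. Capitals mark the seed, bases 2 to 8, and the sequences are from RefSeq (GRCm38.p6).

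mmu-let-7a-5p: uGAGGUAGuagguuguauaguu
mmu-miR-34a-5p: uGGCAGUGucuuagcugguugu

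The let-7 seed was shared by 11 mature mouse microRNAs and the miR-34 seed by 4. Of 22 tested let-7 targets, 9 were higher in the KO at E15.5 at an adjusted p under 0.05 (3.69% of all genes) and 10 at E16.5 (6.99%). In the other direction 1 passed at E15.5 (Ccnd2, a cyclin, 2.18% of all genes) and 1 at E16.5 (3.56%), which was Dicer1, itself on the list and the gene targeted. The median KO effect was 0.37 and then 0.34, the median interaction was -0.01, and 0 members had an unadjusted p under 0.05 for the interaction. The mean log2 signal of the list was 8.59 to 8.66 and 8.57 to 8.61 in controls, and 9.24 to 9.41 and 9.12 to 9.30 in the KO, so genotypes did not overlap on either day. The 17 tested targets of miR-34 had a median KO effect of 0.10 and then 0.23. Of these, 0 were higher in the KO at E15.5 at an adjusted p under 0.05 (3.69% of all genes) and 1 at E16.5 (6.99%). In the other direction 0 passed at either stage (2.18% and 3.56%).

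Nr6a1, a nuclear receptor of embryonic cells and a let-7 target, had the largest rise of the list. At E15.5 it was 5.79, 5.73, 5.66 and 5.57 in controls and 9.14, 9.31, 9.23 and 9.17 in the KO. By E16.5 it was 7.75, 5.74, 5.87 and 5.71 in controls and 9.22, 8.92, 9.16 and 9.14 in the KO. The control E16.5 array at 7.75 is replicate 1, and it sets most of the interaction, which was -0.69 with it and -0.19 without it. Hmga2, a chromatin protein of growing tissues, had a KO effect of 0.81 and then 1.19 (interaction 0.37), Plagl2 0.74 and then 1.09, and Arid3b, a DNA-binding protein, 1.52 and then 1.18 (interaction -0.34).

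Genes of cell division had small positive interactions that depended in part on control E16.5 replicate 2. Of 46 replication and mitosis genes, 45 had a positive value, against 52.2% of all genes, with a median of 0.20, and 2 had an unadjusted p under 0.05. At E15.5, 1 of the 46 was higher in the KO at an adjusted p under 0.05 (3.69% of all genes), and at E16.5, 14 were (6.99%). The median day change was -0.42 in controls and -0.25 in the KO. Without that array the median interaction was 0.13 and 34 were positive, and for the mitotic list alone it was 0.08 with 15 of 23 positive. That array had the lowest mean of the mitotic list, at 8.83, against 9.11 to 9.35 in the other 3 controls of its group, and its part in the remainder was not tested. Examples were Rrm2, a subunit of ribonucleotide reductase, at 0.32 and Ndc80, a kinetochore protein, at 0.36.

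Targets of p53 showed no common direction between days. Its 17 tested targets had a median KO effect of 0.26 at both stages and a median interaction of 0.01. Cdkn1a, the cell cycle inhibitor p21, was 7.67, 7.96, 8.08 and 8.18 in controls and 9.50, 9.65, 9.65 and 9.21 in the KO at E15.5. On the next day it was 9.01, 10.02, 8.28 and 7.85 in controls and 10.17, 9.60, 9.56 and 9.82 in the KO, with control replicate 2 at 10.02 inside the KO range. The interaction was -0.53 with that array and -0.12 without it. Trp53inp1, a p53-induced stress protein, had -0.38 and the stress sensor Sesn2 0.40.

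Schwann cell precursor genes included 3 of 8 with a positive interaction at an unadjusted p under 0.05 (1.28% of all genes). These were the cadherin gene Cdh19 at 0.66, the neuregulin receptor gene Erbb3 at 0.51 and the endothelin receptor gene Ednrb at 0.39. Without control E16.5 replicate 2 the count was 2 and the list median 0.27 in place of 0.16. Chromaffin genes for catecholamine synthesis had a median of 0.05, which turned to -0.20 without that array. Erythroid genes had a median of 0.24 over 9 genes, endothelial genes 0.08 and capsule and mesenchyme genes 0.10, with 0 members of these 3 lists at an unadjusted p under 0.05. With single arrays left out these medians ran from 0.08 to 0.40, from 0.03 to 0.23 and from 0.04 to 0.21.

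The lowest list medians belonged to tissues outside the gland or rested on single arrays. Skeletal and cardiac muscle genes had a median interaction of -1.73 over 11 genes, 0 of them with an unadjusted p under 0.05. Their mean log2 signal was 6.62 to 8.10 in controls and 6.54 to 8.46 in the KO at E15.5, and 5.40 to 7.34 in the KO at E16.5. In the controls at E16.5 it was 8.15, 10.94, 6.71 and 6.65, and the array at 10.94 is replicate 2. Without it the median was -0.68.

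Liver genes had a median of -0.55 over 7 genes, which ran from -1.23 to 0.27 as single arrays were left out. Their mean was 10.06 in control E16.5 replicate 1 against 7.29 to 7.66 in the other 3, and 9.29, 10.65, 6.13 and 6.38 in the KO at E16.5. Neuronal cytoskeleton and synapse genes had a median of -0.31 over 14 genes, -0.59 without control E16.5 replicate 2 and -0.04 without control E15.5 replicate 1. In those arrays the mean of the list was 9.21 and 8.88, against 9.92 to 10.21 in the other 6 controls. Defining markers of muscle, liver and neurons were thus present in all groups at uneven levels, and their part in the interaction of other genes was not tested beyond the values given without single arrays.

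**Figure D5:**
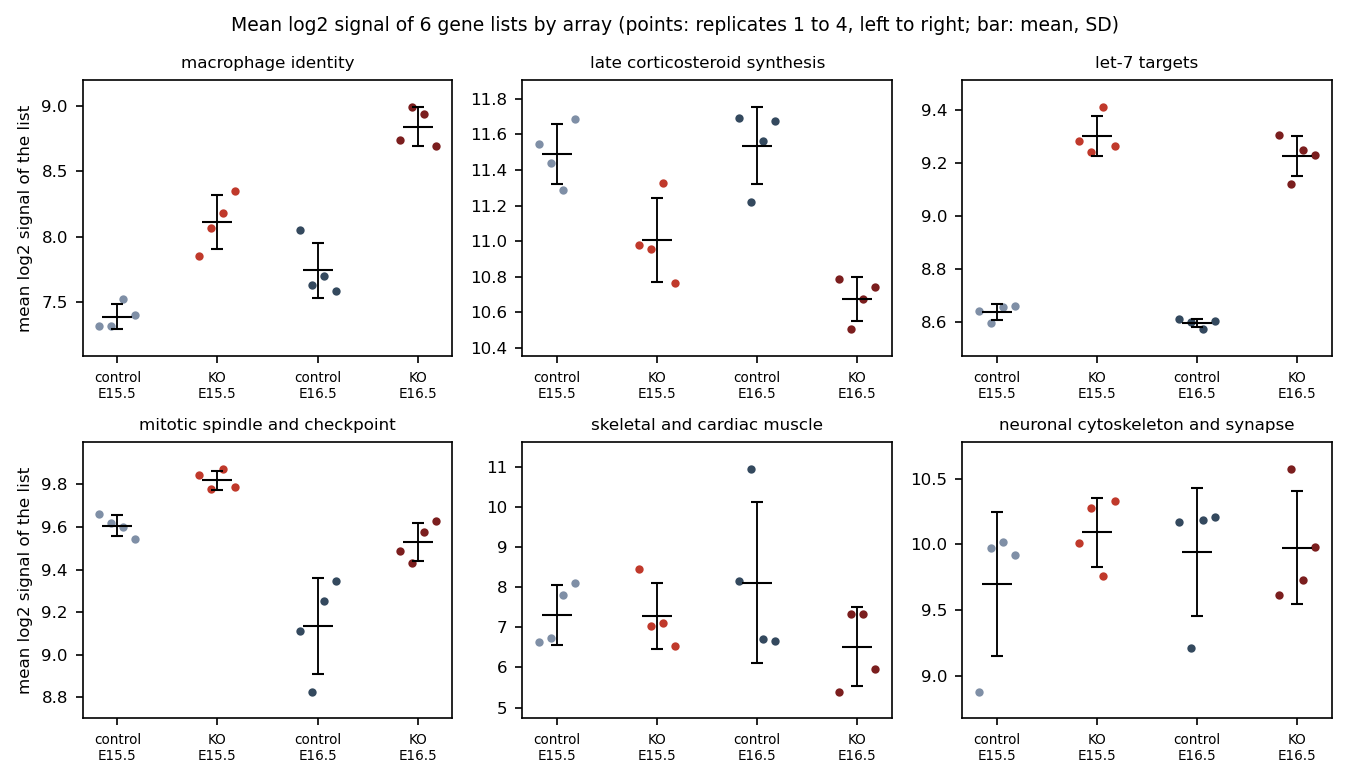
Mean log2 signal of 6 lists in each array, with replicates 1 to 4 from left to right within a group and a bar for the group mean with its SD; vertical axes differ and do not start at 0. The macrophage list is highest in KO E16.5, the let-7 list keeps its 2 levels on both days, and the muscle list is highest in control E16.5 replicate 2, at 10.94.

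Over the 48 lists, 34 had a median interaction above 0 and 14 below, and 29 had no member with an unadjusted p under 0.05. The sign of the median held in 46 of the 48 under both other scalings of the arrays, and in 38 without control E16.5 replicate 2. The 2 lists whose sign turned with scaling had medians within 0.01 of 0. Mitochondrial respiratory chain and cytosolic ribosomal protein genes, which most cells share, had medians of -0.04 and 0.03.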

How the data were processed

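The log2 values of 45101 Affymetrix Mouse430_2 probe sets were used as deposited by the authors. Per the submitters' processing notes, RMA and limma were used; their versions, and whether RMA ran on all arrays at once, are not given in the sources used here. RMA compresses dim signals. Platform annotation gave 34945 probe sets a single gene symbol. A gene was tested where its brightest probe set lay above an array's 40th percentile on at least 4 arrays. A mean per group was fitted with limma 3.58.1 in R 4.3.3 (with data.table, 1.17.8) to all 16 arrays, moderated with eBayes and adjusted by Benjamini-Hochberg over 13642 genes, two-sided. Lists were described by counts and medians, with no test. The genes, lists, motifs and tests were chosen with earlier results of these data known. Where under 10 genes passed in a direction, the genes with the smallest p up to 10 were named. Also named were up to 4 members of each list by size of interaction, any member of cortical and immune lists, and Dicer1, Nr5a1, Nr6a1, Akr1d1, Cyp11b2, Cdkn1a and Shh. The fit was tested on simulated data. Alternatives covered scaling, filters, probe sets, array weights, a replicate block and left-out arrays. The number of arrays limits precision.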

Additional observations from a re-analysis of the deposited data

Results flagged for a closer look

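In 10 of 152 groups of 4 arrays checked, a single array lay far from the other 3 relative to the group's range, and chance alone gives about 1 in 20. The Nr6a1 signal of control E16.5 replicate 1 was 7.75 against 5.71 to 5.87 in the other 3. The mean log2 signal of the liver list was 10.06 in the same array against 7.29 to 7.66. In the neuronal list, control E15.5 replicate 1 was at 8.88 against 9.92 to 10.02, and control E16.5 replicate 2 was at 9.21 against 10.17 to 10.21. The phagocytic and lysosomal list was at 8.29 in control E16.5 replicate 2 against 8.54 to 8.59.

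Smaller gaps were found in named genes. Slc15a3 was at 6.71 in KO E16.5 replicate 2 against 7.03 to 7.05. Mettl7a1 was at 8.97 in KO E15.5 replicate 4 against 8.75 to 8.79, at 9.04 in control E16.5 replicate 3 against 8.82 to 8.85, and at 9.45 in KO E16.5 replicate 3 against 9.24 to 9.27. Man1a was at 8.39 in KO E16.5 replicate 4 against 8.58 to 8.62.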

How the results depend on the processing

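The count of genes passing the interaction was 0 under all alternatives run except quality weights per array (arrayWeights), where it was 6: Cyp2f2 at -2.30, Pcp4l1 at -1.16, Cd1d1 at -0.73, Msr1 at 0.68, Bank1 at 0.90 and Spint1 at 0.97 (adjusted p 0.0394 to 0.0470 by limma). Spint1 lies outside the naming rule and was chosen after its values were seen. The weight of control E16.5 replicate 3 was 10.37, against 0.64, 0.19 and 0.49 in replicates 1, 2 and 4. The weighted control mean at E16.5 thus rests largely on that array. Positive interactions at an unadjusted p under 0.05 numbered 175, but 565 with array weights and 131 to 361 with an array left out (361 without control E16.5 replicate 2). Negative ones numbered 83, but 144 without the filter, 501 with array weights and 67 to 240 with an array left out (240 without control E16.5 replicate 2, 140 without control E16.5 replicate 4). Without control E16.5 replicate 2 and KO E16.5 replicate 1 together, an alternative chosen after seeing the data, these counts were 293 and 161. Genes passing between genotypes at E15.5 numbered 800, but 1688 without the filter, 414 with a stricter filter, 1350 with array weights, 434 without replicate 1 of both genotypes and 588 to 1059 with an array left out. At E16.5 they numbered 1439, but 2355, 899, 4938 and 935 to 1705 (935 without KO E16.5 replicate 3). The interaction of Dicer1 turned to 0.026 without replicate 1 of both genotypes at E15.5, to 0.01 without the pair of E16.5 arrays, and ran from -0.083 to 0.064 with an array left out. The cause of these shifts was not tested. With the replicate number as a block, 0 genes passed, 225 positive and 108 negative ones had an unadjusted p under 0.05, and 710 and 1263 passed between genotypes. Same-numbered arrays correlated at -0.39 to 0.45, with 5 of 8 pairs over 0.1, and 3 of 8 correlated best with their own number. The labels do not say which arrays share a litter, so the numbers were not taken to pair arrays. Of 692 values of named genes under alternatives, 8 turned sign, all of Dicer1. Over 26 dimmer probe sets of 15 of these genes, the interaction had the same sign as in the probe set used in 22 and the opposite sign in 4. Of 1247 list medians, 26 moved by more than the spread between replicates. Depth on arrays is limited by signal over background: under the filter lay 4551 genes.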
